A study of Mus musculus with 6 samples.

Results

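Of 6 Fc receptor genes in RAW264.7 mouse macrophages, 1 rose in the libraries labelled ERMAP shRNA: Fcgr1, the high-affinity IgG receptor. Fcgr4 had lower values in every library of that group but did not pass the test, and Fcgr2b, Fcgr3, Fcer1g and Fcgrt had values that overlapped between the groups. The genes were chosen by name: Fcgr1, Fcgr2b, Fcgr3 and Fcgr4 encode the IgG-binding chains of the Fc gamma receptors, Fcer1g their shared signalling chain and Fcgrt the heavy chain of the neonatal Fc receptor. They are 6 of the 54532 genes in the deposited tables. All 6 passed the filter on low counts, as did 12491 genes in all.

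RNA was sequenced from RAW264.7, a mouse macrophage-like line from a tumour induced by Abelson leukaemia virus. The 3 control libraries carry the genotype label WT and no treatment tag. The 3 others carry the genotype label ERMAP Knockdown with the treatment tag shRNA, and are called ERMAP shRNA here. ERMAP, erythroid membrane-associated protein, is a relative of the butyrophilins, and the stated question is which genes differ after its knockdown. A lentivirus with ERMAP shRNA is written in the treatment protocol of all 6 samples, and no label names a non-targeting shRNA or an empty virus. Effects of viral transduction and of the shRNA itself cannot be told apart in such a design. Nothing states that the replicates of a group came from separate cultures, so p-values measure how these libraries vary, and that variation may be technical.

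Fc receptors let a phagocyte sense antibody bound to its target. In the mouse, the products of Fcgr1, Fcgr3 and Fcgr4 pair with the gamma chain from Fcer1g, whose ITAM motif is phosphorylated by Src-family kinases and recruits the kinase Syk, which leads to uptake of the target and an oxidative burst. The product of Fcgr2b carries an inhibitory ITIM motif instead and recruits the phosphatase SHIP1, encoded by Inpp5d, so the balance of activating and inhibitory chains sets how readily an immune complex is answered. The neonatal receptor works inside the cell: the Fcgrt product pairs with beta-2-microglobulin, binds IgG in acidic endosomes and returns it to the surface. Fcgr1 is a textbook target of interferon in macrophages.

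Summed counts ranged from 13447021 to 16602734 per library. Control replicate 1 stood apart: mitochondrial genes took 3.69% of its counts, against 1.71% to 2.18% in the other 5 libraries, so values without it are given below. Ermap, the gene that the shRNA is said to target, had 12, 12 and 3 counts in control and 10, 21 and 14 in ERMAP shRNA (edgeR log2 fold change 0.81, 95% interval -0.38 to 2.01, adjusted p = 0.929). Its level thus gave no check of the label, and "higher" and "lower" below compare the libraries as labelled. Of 10 macrophage markers, 9 passed the filter and Mertk was at 0 in all libraries. Of 8 B cell markers 4 were at 0, Ms4a1, Pax5 and Cd22 among them, in all libraries, which allows up to 0.0334 CPM each over the 89767428 counts. The B cell sum, nearly all Ighm, was still 260.2 to 302.4 CPM in control and 334.3 to 370.7 CPM in ERMAP shRNA. The mast cell sum, which includes Fcer1a and Ms4a2, the other chains of the IgE receptor, was 0 in all libraries. Sums of T or NK cell, neutrophil, dendritic cell, fibroblast or epithelial, and erythroid markers were at most 3.73 CPM in any library.

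Fcgr1, which encodes the receptor that binds single IgG molecules (CD64), was the gene that rose. Its levels were 31.3, 27.3 and 27.1 CPM (counts relative to library size, scaled by TMM factors) in control and 86.8, 90.0 and 90.2 CPM in ERMAP shRNA. Every ERMAP shRNA library was above every control library, and the libraries of a group lay close together. The means were 28.6 ± 2.34 and 89.0 ± 1.89 CPM (SD, n = 3), a 3.12-fold difference. In bulk RNA, more transcript per cell and more cells that express the gene cannot be told apart. By edgeR this was 1.64 on the log2 scale (SE 0.10, 95% interval 1.41 to 1.87) with an adjusted p of 0.000116. Of all 12491 tested genes 1.01% were called higher, and 7.74% were higher with no overlap between groups. In order of log2 fold change from the highest, Fcgr1 was at place 104. The groups' summed counts were 1316 and 3870, a scaled ratio of 3.13 (exact 95% binomial interval 2.94 to 3.33, which covers counting error only). Leaving out any single library gave log2 fold changes from 1.60 to 1.70, and the call held in all 20 alternatives tried, with adjusted p up to 0.00401.

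**Figure D1:**
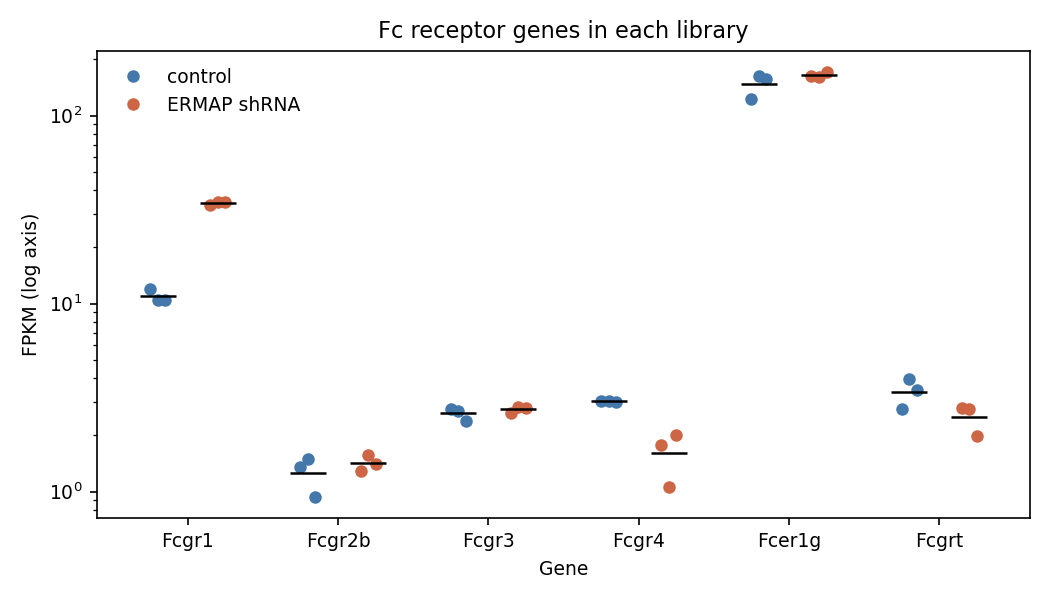
Deposited FPKM (read level scaled by gene length and library total) of the 6 Fc receptor genes on a log axis, 1 point per library, with a black line at each group mean. Fcgr1 sits at 10.4 to 11.9 in the 3 control and 33.2 to 34.7 in the 3 ERMAP shRNA libraries, Fcgr4 is lower in all 3 ERMAP shRNA libraries, and the points of the other 4 genes overlap between groups.

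Fcgr1 (ENSMUSG00000015947) is at 96282909 to 96293969 on chromosome 3 (mm10, minus strand). No 50-base stretch of its annotated transcripts occurs in a transcript of another gene, so reads of that length would not be shared. The 250 bases before its RefSeq start are shown because it is the member that changed, and those of Fcgr4 because its values went the other way. They are the reference strain's sequence (RefSeq, GRCm38.p6), not read from these cells, and all 6 genes had an entry. Capitals mark matches on either strand to TTCNNNGAA (the core of the interferon-gamma-activated site, GAS), GAAANNGAAA (the ISRE core bound by interferon regulatory factors) or GAGGAA (a core bound by PU.1). The windows are chr3:96293970-96294219, minus strand, and chr1:171018676-171018925, plus strand.
Fcgr1: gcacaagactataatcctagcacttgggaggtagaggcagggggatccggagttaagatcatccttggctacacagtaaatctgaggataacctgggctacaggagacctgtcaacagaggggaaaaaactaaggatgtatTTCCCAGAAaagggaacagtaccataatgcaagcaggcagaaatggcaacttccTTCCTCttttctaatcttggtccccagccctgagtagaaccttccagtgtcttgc
Fcgr4: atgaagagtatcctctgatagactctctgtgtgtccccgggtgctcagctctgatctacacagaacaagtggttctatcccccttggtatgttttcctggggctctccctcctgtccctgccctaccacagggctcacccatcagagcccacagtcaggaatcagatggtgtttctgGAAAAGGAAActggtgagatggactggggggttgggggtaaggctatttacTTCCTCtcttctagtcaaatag
The Fcgr1 window holds the GAS match TTCCCAGAA, whose first base is 109 bases before the start, and a PU.1 match, TTCCTC, at 55 bases. The Fcgr4 window holds the ISRE match GAAAAGGAAA at 73 bases and a PU.1 match at 22 bases. No GAS match was found in the windows of the other 5 genes and no ISRE match outside Fcgr4. Fcgr3 had a PU.1 match, the same site in each of its overlapping windows, and Fcgr2b, Fcer1g and Fcgrt had none of the 3 motifs. Among 32851 windows of the same length, 7.02% hold the GAS core, 2.98% the ISRE core and 23.3% the PU.1 core, and no 2 of the matches overlap. A match is only a match of letters: the gene with the ISRE core had lower values and the gene with the GAS core rose.

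Fcgr4, an activating receptor for IgG2a and IgG2b, had the lowest counts of the 6 genes. Counts were 56, 64 and 57 in control and 30, 20 and 38 in ERMAP shRNA, and levels 3.87, 3.85 and 3.76 against 2.24, 1.33 and 2.53 CPM. All 3 ERMAP shRNA libraries were below all 3 controls, as for 6.47% of all tested genes, and replicate 2 was the lowest. The means were 3.83 ± 0.058 and 2.03 ± 0.625 CPM (SD, n = 3), a ratio of 0.531. On the log2 scale this was -0.91 (SE 0.27, 95% interval -1.53 to -0.29). It did not pass the test over all genes (edgeR adjusted p = 0.332). At an unadjusted p under 0.05, 3.04% of all tested genes were lower, with Fcgr4 the 1 member among them. Counting error alone gives an interval of 0.405 to 0.687 around the scaled ratio of summed counts, 0.529. The control libraries agreed more closely (coefficient of variation 1.53%) than counting error alone gives on average (13.0%), and the ERMAP shRNA libraries less closely (30.7%, against 18.5%). Values were negative in all 20 alternatives, from -1.10 to -0.69 on the count scale. Adjusted p was 0.0700 without control replicate 1 and up to 0.846 without 1 of the other libraries. The fit with library weights called Fcgr4 lower (-0.80, limma adjusted p = 0.0370), and it gave control replicate 1 a weight of 0.0903 against 0.772 to 3.26 for the other 5 libraries. Fcgr4 (ENSMUSG00000059089) lies on the plus strand of chromosome 1, from 171018920 to 171029761, and shares no 50-base stretch with transcripts of other genes.

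**Figure D2:**
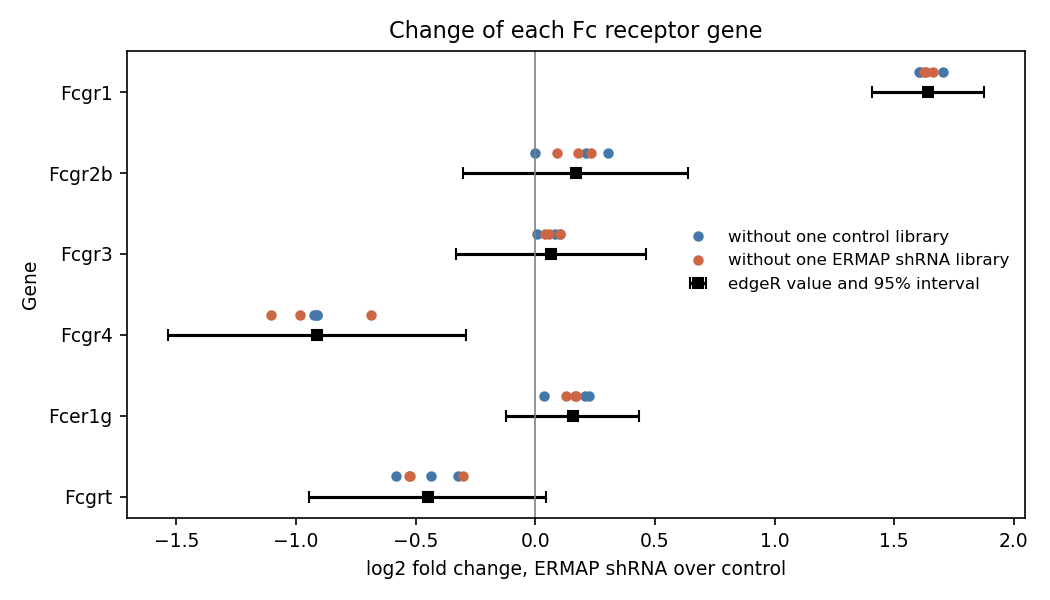
Log2 fold change of each Fc receptor gene, ERMAP shRNA over control: squares are edgeR values with 95% intervals, and points above them are the values with 1 library left out, in blue for a control and in orange for an ERMAP shRNA library. The points of Fcgr1 stay between 1.60 and 1.70, those of Fcgr4 between -1.10 and -0.69, and a point of Fcgr2b falls on 0.

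The other 2 IgG-binding chains differed less than their spread. Fcgr2b, the inhibitory receptor, had 7.88, 8.67 and 5.48 CPM in control and 7.55, 9.05 and 8.18 CPM in ERMAP shRNA. The groups overlapped, with control replicate 3 the lowest library. By edgeR the log2 fold change was 0.17 (95% interval -0.30 to 0.64) with an adjusted p of 0.944, so differences from 0.811-fold to 1.56-fold lie inside the interval. Without control replicate 3 it was -0.00105, so the sign of the Fcgr2b value rests on that library. Fcgr3, the low-affinity activating receptor, had 4.84, 4.70 and 4.16 CPM in control and 4.56, 4.92 and 4.86 CPM in ERMAP shRNA, and again the groups overlapped. Its log2 fold change was 0.07 (adjusted p of 0.961 by edgeR), with a 95% interval of -0.33 to 0.46, or from 0.795-fold to 1.38-fold. Fcgr2b and Fcgr3 resemble each other: 9.58% of the 50-base stretches of Fcgr3 transcripts also occur in Fcgr2b. How the authors' counting placed such reads is not given in the sources used here, so the pair is uncertain to that extent. Fcgr2b (ENSMUSG00000026656, 170958617 to 170976547) and Fcgr3 (ENSMUSG00000059498, 171051174 to 171064935) lie on the minus strand of chromosome 1 on either side of Fcgr4. The start of Fcgr4 is 42.4 kb from that of Fcgr2b and 46.0 kb from that of Fcgr3.

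Fcer1g, the signalling chain that the activating receptors need at the surface, was by far the most abundant of the 6. Its FPKM, a level per gene length, was 122.1, 161.4 and 156.9 in control and 161.7, 160.0 and 170.4 in ERMAP shRNA. Control replicate 1 was the lowest library and the others lay close together, with 1 control inside the range of the ERMAP shRNA libraries. In CPM the means were 129.4 ± 18.6 and 144.2 ± 4.78 (SD, n = 3). The edgeR estimate was 0.16 on the log2 scale (SE 0.12, 95% interval -0.12 to 0.43) with an adjusted p of 0.937, and it was 0.04 without control replicate 1. With 6015 and 6267 counts per group, the interval spans 0.918-fold to 1.35-fold. Fcer1g (ENSMUSG00000058715) is on the minus strand of chromosome 1, from 171229572 to 171234365.

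Fcgrt, the IgG-recycling receptor, had 5.88, 8.43 and 7.33 CPM in control and 5.90, 5.79 and 4.19 CPM in ERMAP shRNA. A control and an ERMAP shRNA library were nearly level, so the groups overlapped. The edgeR estimate was -0.45 on the log2 scale (SE 0.21, 95% interval -0.94 to 0.05) with an adjusted p of 0.808. Without control replicate 1, the lowest control, it was -0.58 (adjusted p = 0.0908), and without ERMAP shRNA replicate 3 it was -0.30. Fcgrt (ENSMUSG00000003420) is on the minus strand of chromosome 7, from 45092990 to 45103851. B2m, which encodes its light chain and also that of MHC class I, had 569.7, 442.7 and 423.0 CPM in control and 631.5, 664.9 and 682.6 CPM in ERMAP shRNA. The groups did not overlap, but the log2 fold change of 0.46 (SE 0.13) did not pass (edgeR adjusted p = 0.265). B2m was called higher without control replicate 1 (0.60, adjusted p = 4.34e-07).

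Set side by side per gene length, the 6 genes kept most of their order. That order rests on the deposited gene lengths, such as 5790 bases for Fcgr2b, 1736 for Fcgr3 and 1256 for Fcgr4. In mean CPM, not corrected for length, control had 7.34 for Fcgr2b, 4.57 for Fcgr3 and 3.83 for Fcgr4. The CPM means in ERMAP shRNA were 8.26, 4.78 and 2.03, so by CPM Fcgr2b was above both in each group. Mean FPKM in control was 146.8 ± 21.5 for Fcer1g, 10.9 ± 0.856 for Fcgr1, 3.40 ± 0.612 for Fcgrt, 3.02 ± 0.038 for Fcgr4, 2.61 ± 0.198 for Fcgr3 and 1.26 ± 0.283 for Fcgr2b (SD, n = 3). In ERMAP shRNA it was 164.1 ± 5.58 for Fcer1g, 34.2 ± 0.820 for Fcgr1, 2.74 ± 0.119 for Fcgr3, 2.50 ± 0.449 for Fcgrt, 1.61 ± 0.494 for Fcgr4 and 1.42 ± 0.133 for Fcgr2b. Fcer1g and Fcgr1 stood above the rest in both groups. In control Fcgrt overlapped Fcgr4, and in ERMAP shRNA Fcgrt overlapped both Fcgr3 and Fcgr4, and Fcgr4 overlapped Fcgr2b, so their order there is within the spread.

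The make-up of the IgG receptor transcripts followed from these levels. Fcgr1 took 62.5%, 59.2% and 62.3% of the summed FPKM of the 4 IgG-binding chains in control and 85.4%, 86.4% and 84.8% in ERMAP shRNA. Fcgr4 took 17.0% ± 0.942 in control and 4.03% ± 1.22 in ERMAP shRNA, and Fcgr2b 7.03% ± 1.39 and 3.55% ± 0.297 (SD, n = 3). The groups did not overlap in any of the 4 shares, but the other shares must fall when 1 gene adds to the sum, which here went from 17.8 ± 1.18 to 39.9 ± 0.993 FPKM. Ratios to the inhibitory chain avoid this. Fcgr1 to Fcgr2b was 8.87, 7.04 and 11.1 in control and 25.7, 22.2 and 24.6 in ERMAP shRNA, with no overlap. Fcgr4 to Fcgr2b was 2.26, 2.05 and 3.17 against 1.37, 0.678 and 1.42, also with no overlap, though Fcgr4 itself did not pass the test. Of single tested genes 14.2% did not overlap either way, and the share among ratios of 2 genes was not worked out. Fcgr3 to Fcgr2b was 2.05, 1.81 and 2.53 against 2.01, 1.81 and 1.98, and overlapped. Fcer1g exceeded the sum of its 3 partner chains 8.94 ± 1.77 times in control and 4.26 ± 0.090 times in ERMAP shRNA (SD, n = 3). These are ratios of transcripts, and protein at the cell surface was not measured. The size of each ratio rests on the deposited gene lengths, which are the same in both groups.

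**Figure D3:**
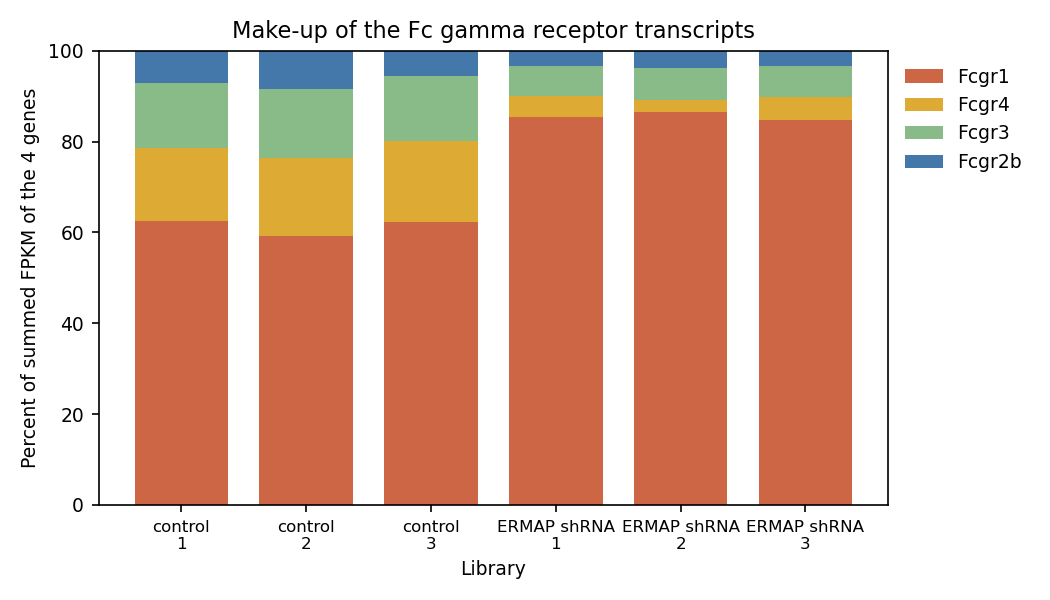
Share of each IgG-binding chain in the summed FPKM of Fcgr1, Fcgr2b, Fcgr3 and Fcgr4, in percent, 1 bar per library. Fcgr1 makes up 59.2% to 62.5% in the control bars and 84.8% to 86.4% in the ERMAP shRNA bars, and Fcgr4 is the share that shrinks most.

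Few genes listed as other Fc-binding or Fc receptor-like genes passed the filter in these cells. Of 14 listed, 3 passed it, namely B2m, Trim21 and Fcrl1, and edgeR called 0. Not every product on the list binds antibody itself: B2m, for one, encodes a light chain. Before adjustment, 2 were higher and 0 lower at a p under 0.05, as were 3.71% of all tested genes in the first direction. Trim21, a receptor for antibody inside the cytosol, had 3.11, 6.07 and 3.89 CPM in control and 9.48, 9.17 and 12.4 CPM in ERMAP shRNA. Every ERMAP shRNA library of Trim21 was higher, with a log2 fold change of 1.24 (SE 0.27, edgeR adjusted p = 0.105). Trim21 was called without control replicate 1 or 2, by DESeq2, with library weights, with GC offsets and with no filter on low counts. Over all 15732 genes with an adjusted p, DESeq2 called 1.19% higher and 0.369% lower. Fcrl1, an Fc receptor-like gene better known from B cells, had 38.1 CPM in control and 33.4 CPM in ERMAP shRNA on average. Its log2 fold change was -0.19 (edgeR adjusted p = 0.893). Of 8 B cell markers 4 were at 0, Ms4a1 and Pax5 among them, while Ighm averaged 316.9 CPM. Of the 14 listed genes the remaining 11, among them Fcer2a, Fcmr and Pigr, did not pass the filter.

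Of the signalling and uptake genes downstream of the receptors edgeR called 0. Of 31 kinases and adaptors that carry the activating signal, 30 were tested and 15 had positive values. Their median was 0.02 on the log2 scale, against -0.01 over all tested genes. Before adjustment, 3 were higher and 1 lower at a p under 0.05, against 3.71% of all tested genes higher and 3.04% lower, and DESeq2 called 0. Plcg2, the phospholipase, was the gene of the list with the highest CPM, a value not corrected for gene length, and had 218.5 and 238.9 CPM on average (log2 fold change 0.13, edgeR adjusted p = 0.937). Syk, the kinase that docks on the gamma chain, was chosen after its values were seen and had 84.8 and 82.5 CPM. Of 24 inhibitory receptors and phosphatases 22 were tested, with a median of -0.07, 1 higher and 4 lower at that threshold, to be read against the same shares of all tested genes. Ptpn6, the phosphatase SHP1, had 636.5 and 641.6 CPM, and Inpp5d, also chosen after its values were seen, 234.5 and 238.9 CPM. DESeq2 called Pirb and Ptpn22 lower in this list, against 0.369% of all genes.

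EdgeR also called 0 genes in the lists of other ITAM receptors and adaptors, the phagocytic cup and the NADPH oxidase. Of 24 genes listed as other receptors and adaptors of ITAM signalling, 18 were in the table and 8 were tested. Their median was -0.16 and 2 were lower at an unadjusted p under 0.05, where 3.04% of all tested genes were lower. Tyrobp, the adaptor DAP12, had 282.8 and 270.5 CPM (log2 fold change -0.06, edgeR adjusted p = 0.952), and DESeq2 called Clec4a2 and Clec7a lower. Clec4a2 was placed in this list although its product is an inhibitory receptor, so the list is not made up of activating receptors alone. Of 34 genes of the phagocytic cup and its actin, 32 were tested, with a median of -0.02 and 3 lower at that threshold. Cfl1, cofilin, had 1226 and 1381 CPM, and DESeq2 called Myo1e, a myosin of the cup, lower. All 5 genes of the phagocyte NADPH oxidase were tested, with a median of 0.04 and 1 higher at that threshold, and DESeq2 called 0. Cybb, the catalytic subunit, had 513.5 and 675.9 CPM (log2 fold change 0.40, SE 0.14, edgeR adjusted p = 0.489), and the other 4 were between 0.02 and 0.13.

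Control replicate 1 bore on these counts. Without it, 9 genes of the 7 pathway lists were called higher and 13 lower, against 2 and 0 with all libraries. The 9 included Irf9, Stat2, B2m, Trim21, Cybb, Blnk and Prkce, and the 13 included the receptors Pirb, Clec4a2, Clec7a, Cd300a, Sirpa and Trem2. Without control replicate 1, 342 genes of the whole table were called higher and 280 lower, against 126 and 17 with it. The Fc receptor genes kept 1 call higher and 0 lower there.

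**Figure D4:**
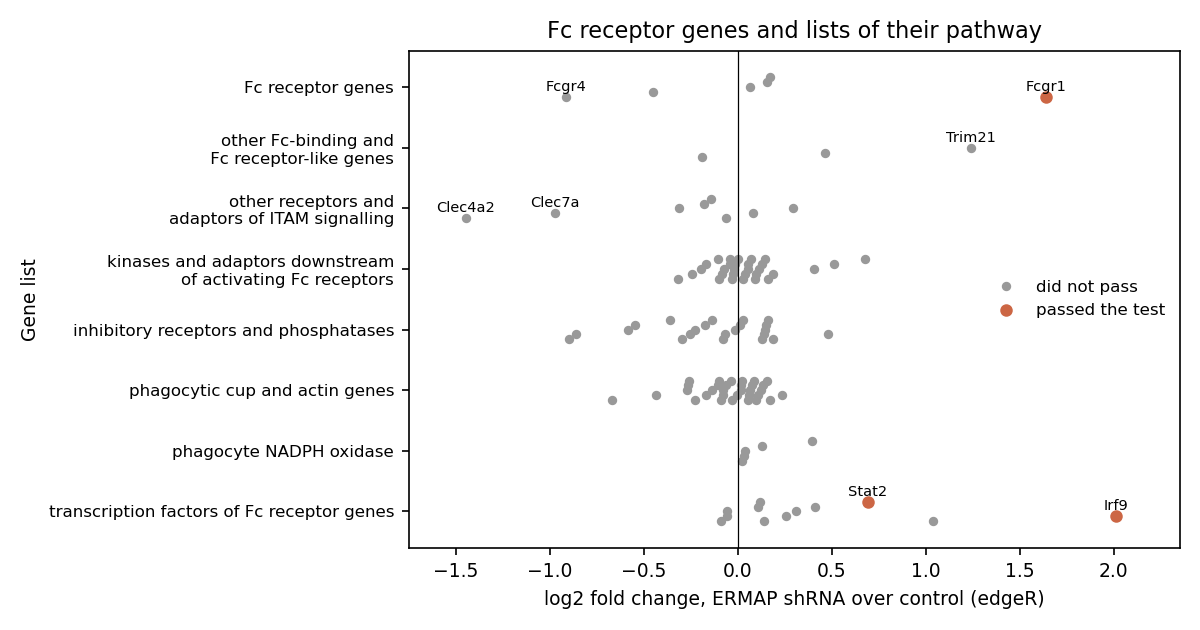
Log2 fold change, ERMAP shRNA over control (edgeR), of every tested gene in the Fc receptor genes and the 7 pathway lists, 1 point per gene. The 3 orange points that passed the test are Fcgr1 (1.64), Irf9 (2.01) and Stat2 (0.69), and most grey points lie near 0.

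Among 12 transcription factors listed for Fc receptor genes, Irf9 and Stat2 rose and none of the other 10 passed the test. The called share was 16.7%, against 1.14% of all tested genes. The list was chosen with earlier results of these data known, so the 2 shares cannot measure enrichment. Whether each listed factor acts on an Fc receptor gene in these cells was not tested. The median log2 fold change of the 12 was 0.20. Irf9, which joins STAT2 in a complex that binds interferon-response elements, had 16.7, 16.8 and 19.0 CPM in control and 73.5, 67.3 and 71.4 CPM in ERMAP shRNA (log2 fold change 2.01, SE 0.11, edgeR adjusted p = 4.51e-05). Irf9 was called in all 20 alternatives. Stat2 had 25.9, 30.1 and 26.8 CPM against 44.5, 42.9 and 46.6 CPM (0.69, SE 0.11, adjusted p = 0.0243), with no overlap. Stat2 lost its call without control replicate 3 or any ERMAP shRNA replicate (adjusted p up to 0.212), and on log2(FPKM + 1) with no filter (0.0880). Spi1, which encodes PU.1, had 251.0, 408.0 and 380.9 CPM against 382.8, 353.1 and 391.4 CPM, with control replicate 1 below all other libraries and a log2 fold change of 0.12 (edgeR adjusted p = 0.949).

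**Figure D5:**
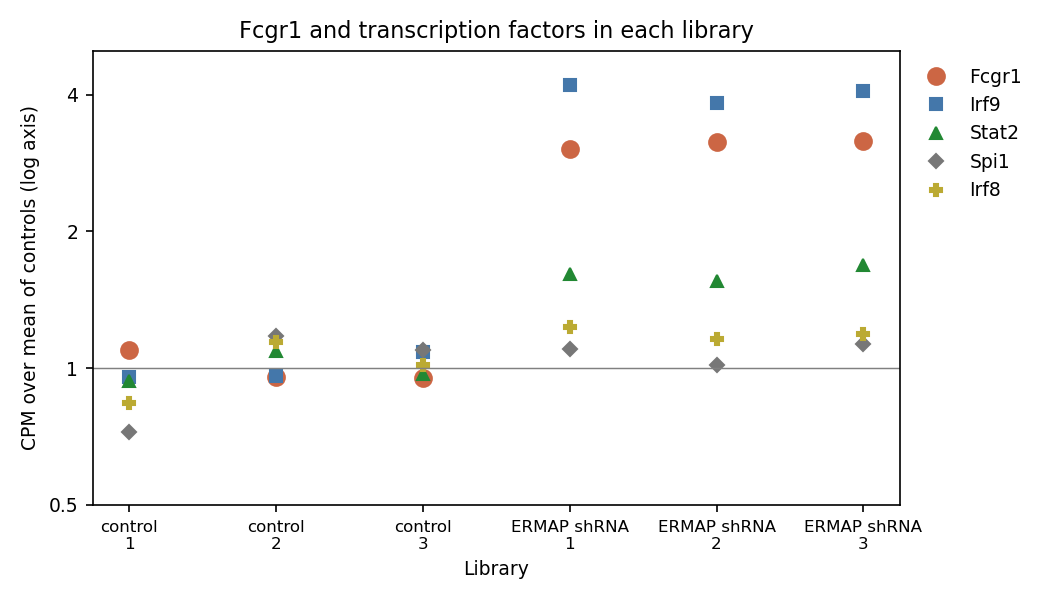
CPM of Fcgr1 and 4 transcription factors in each library, divided by the gene's mean in the 3 controls, on a log axis. Fcgr1, Irf9 and Stat2 lie higher in all 3 ERMAP shRNA libraries than in any control, as does Irf8 by a small gap, while Spi1 overlaps and is lowest in control replicate 1.

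The genes whose pattern over the 6 libraries was most like that of Fcgr1 were Parp14, Oas2 and Parp9, with Pearson r from 0.999 to 1.00 over 9382 protein-coding genes compared. With 2 groups of 3, such an r mostly restates the gap between groups. Parp14 and Parp9 encode ADP-ribosyltransferases and Oas2 an oligoadenylate synthetase, all known as interferon-stimulated. Parp14 rose from 19.1 to 105.5 CPM on average (log2 fold change 2.47, edgeR adjusted p = 3.60e-05). Oas2 rose from 13.8 to 137.0 CPM (3.31, adjusted p = 4.99e-06) and Parp9 from 37.3 to 84.1 CPM (1.17, adjusted p = 0.000502). The nearest genes to Fcgr4 were Ephx1, Rnf146 and Lat2 (r from 0.949 to 0.962), and to Fcgrt Magi1, Spry2 and Gcdh (0.972 to 0.976). Those of Fcer1g were Yju2, Daglb and Parp1 (0.996 to 0.998), of Fcgr2b Fut10, Smim3 and Nme7 (0.970 to 0.987) and of Fcgr3 Acp1, Nup85 and Pmm2 (0.975 to 0.991). Of those 15 genes edgeR and DESeq2 each called 0, and 0 had an unadjusted p under 0.05. EdgeR called 1.14% of all tested genes. The 15 were picked for likeness to members that edgeR did not call, so few calls were to be had.

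The tested genes around the members did not share the change of Fcgr1, but few of them lie near Fcgr1 itself. Within 100 kb of a member's start lay 44 other protein-coding genes, of which 22 were tested. Of these edgeR and DESeq2 each called 0, and 1, Hist2h2be, was lower at a p under 0.05 before adjustment. Their log2 fold changes ran from -0.55 to 0.45 with a median of 0.04. Within that distance of Fcgr1, the histone gene Hist2h2be had 12.3 and 8.44 CPM (-0.55, edgeR adjusted p = 0.236) and Bola1 a log2 fold change of 0.17 (adjusted p = 0.949). In the cluster on chromosome 1, Dusp12, a phosphatase within 100 kb of Fcgr2b, had 6.27 and 6.96 CPM. Tomm40l, within 100 kb of Fcer1g, had a log2 fold change of 0.02. Antisense genes overlap Fcgr2b (Gm38204) and Fcgrt (Gm45669), with 3 and 0 counts in all 6 libraries, so little read mass lay in them as counted.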

How the data were processed

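Gene tables for 6 RAW264.7 libraries were used, 3 control and 3 labelled ERMAP shRNA, each library a column named by group and number. The authors deposited whole-number read counts and FPKM per gene. The submitters' processing notes name HISAT2 and the build mm10. Not given in the sources used here are versions, the counting program, its strand setting and the annotation. The deposited FPKM equals count over gene length and 1 constant per library, within 1.20% of the library total.

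Counts were tested with edgeR 4.0.16 (quasi-likelihood, TMM, filterByExpr with minimum count 10, Benjamini-Hochberg over 12491 genes, calls at adjusted p under 0.05), in R 4.3.3 with limma 3.58.1 and DESeq2 1.42.0 for alternatives. The test was run on counts drawn independently with its own fitted dispersions, which cannot show how it handles control replicate 1. CPM are TMM-scaled. FPKM served levels between genes. Summed counts of 13447021 to 16602734 limit precision, and intervals on summed counts cover counting error only.

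The members and lists were chosen with earlier results of these data known. Named were the members, Ermap, B2m, Trim21, up to 3 called genes of a list (mean CPM at least 1, otherwise the gene highest in CPM), the 3 genes closest in pattern (mean CPM at least 5, log2 CPM with prior count 2) and neighbours within 100 kb. Motifs were searched in RefSeq windows, and 50-base sharing in GENCODE vM21 transcripts. Some items are not reported here. Alternatives were other scaling, filters, tests, FPKM scales, library weights, GC offsets, a replicate block, a stricter threshold and leaving out each library.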

Additional observations from a re-analysis of the deposited data

How the results depend on the processing

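Fcgr1 was called higher in all 20 alternatives. Of the member fold changes, 1 changed sign: Fcgr2b, 0.17 with all libraries, was -0.00105 when control replicate 3 was left out. With any 1 library left out it reached at most 0.30, without control replicate 2, and with library weights 0.41. Library weights called Fcgr4 lower (-0.80, adjusted p = 0.0370), so 1 Fc receptor gene was called lower there and 0 elsewhere, and Fcgr4 ranged from -1.10 to -0.69 with 1 library left out. Over the whole table, 126 genes higher became 487 with library weights, 271 with GC offsets, 81 on log2(FPKM + 1) with no filter, 81 with the replicate block and 82 at an adjusted p under 0.01, and 73 to 342 with 1 library left out. The 17 lower became 430, 144, 5, 3 and 3 in that order, 58 with DESeq2, 32 with no filter on low counts, and 3 to 280 with 1 library left out. Of the pathway genes, 2 higher became 12, 9, 1, 1 and 1 in that order, 4 with DESeq2, 4 with no filter, and 1 to 9 with 1 library left out. The 0 lower became 12 with library weights, 7 with GC offsets, 5 with DESeq2, 1 with no filter, and 0 to 13 with 1 library left out. The highest of each range of counts is without control replicate 1, and the cause was not tested. A stricter threshold calls fewer genes by construction. The replicate block used the numbers in the column names, which could not be tied to single samples. Deviations of libraries with the same number correlated at -0.13, -0.28 and 0.18, and those with different numbers from -0.25 to 0.34. Deviations within a group cancel by construction, so these values cannot decide whether equal numbers mark pairs. The block changed no member's call, and Stat2 was not called with it (adjusted p = 0.179). The deposited group means of FPKM were not used. Depth limits Fcgr4, with 88 to 177 counts per group, more than the other members.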
